A study of Mus musculus with 12 samples.

Results

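Malt1, its binding partners, the TRAF adaptors that act with it and the ubiquitin ligase Birc3 were followed across 12 Affymetrix arrays of mouse bone marrow cells. The members were set by name, 9 in all: Malt1, Bcl10, Card9, Traf1, Traf2, Traf3, Traf5, Traf6 and Birc3. Of these, 7 genes had probe sets whose platform annotation named that gene alone, 19 probe sets among 34945 of this kind and 7 genes among 18193. Card9 and Traf3 were not analysed here. Each gene is given by its brightest probe set over the 12 arrays, so probe sets were chosen by their mean level over all 12 arrays. The genes themselves were picked from a pathway after earlier results of these data had shown values for some of them.

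The cells came from whole bone marrow cultures of female C57BL/6 mice aged 6 weeks. The 4 groups were c-kit+ cells from cultures given 1 nM 17β-estradiol (17βE) for 1 week, c-kit+ cells from control cultures, CD44+ cells from cultures given 17βE in the same way, and CD44+ cells from control cultures, with 3 arrays each. Control cultures were not treated. The labels call the c-kit+ fraction stem cells and the CD44+ fraction stromal cells. Nothing in the labels ties a replicate to a culture or an animal of its own, so p-values measure only the spread between these samples.

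MALT1 is a scaffold and a protease. In lymphocytes and myeloid cells it joins BCL10 and a CARD-containing scaffold (CARD9 in myeloid cells) in a filament that recruits TRAF6 and turns on the kinase complex upstream of NF-κB. TRAF proteins couple receptors of the TNF and Toll/interleukin 1 receptor families to the same kinases, and BIRC3 (also called c-IAP2) is a ubiquitin ligase carried to receptors by TRAF2. Several of these genes, Traf1 and Birc3 among them, are known targets of NF-κB.

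The mean of the stromal markers followed the labels of the fractions, and that of the stem and progenitor markers did not. Kit read between 3.79 and 4.22 on the log2 scale on all 12 arrays, c-kit+ ones included, and 13 probe sets of Y-linked genes, which these female cells cannot use, had a median of 3.36. The other 4 measured stem and progenitor markers (Cd34, Gata2, Meis1 and Flt3) lay at or above the median gene. Of these Gata2 (6.29), Meis1 (6.28) and Flt3 (6.24) were close to the highest mean of a Y-linked probe set, 6.22. The mean of all 5 stem and progenitor markers was 5.67 to 5.91 on c-kit+ arrays, against 6.06 to 6.30 on CD44+ arrays. Cd44 read 11.76 to 12.46 over both fractions. The mean of the 9 stromal markers separated them, at 6.56 to 7.47 on c-kit+ arrays and 7.91 to 9.32 on CD44+ arrays. In control cultures 5 of the 9 were lower in c-kit+ cells than in CD44+ cells on the log2 scale: the collagen genes Col1a1 (-1.75, adjusted p = 0.0195), Col1a2 (-3.37, adjusted p = 0.000763) and Col3a1 (-3.09, adjusted p = 0.00467), the chemokine gene Cxcl12 (-2.84, adjusted p = 0.00257) and the receptor gene Pdgfrb (-2.87, adjusted p = 0.0112). The macrophage gene Csf1r read 13.86 to 14.11, and its mean level was above that of 99.95% of all genes. For Lyz2 this share was 99.99%, and for Itgam, the dimmest macrophage marker, 60.58%. The mean of the 8 measured macrophage and monocyte markers was 12.03 to 12.40 on c-kit+ arrays and 11.79 to 12.16 on CD44+ arrays. All 8 lay at or above the median gene. None of the 5 B cell markers measured did, and 1 of 5 for T and NK cells did. In bulk arrays, more cells of a type and more RNA per cell cannot be told apart.

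Promoters are shown for Traf1, the member that rose in both fractions, Birc3, which rose in the average, and Bcl10, where the NF-κB consensus was found. They are RefSeq sequences of build GRCm38.p6, 250 bases before to 50 after the start of 1 transcript, 5′ to 3′ on the strand of the gene. Capitals mark the match.
Traf1 (chr2:34961723-34962022, minus strand): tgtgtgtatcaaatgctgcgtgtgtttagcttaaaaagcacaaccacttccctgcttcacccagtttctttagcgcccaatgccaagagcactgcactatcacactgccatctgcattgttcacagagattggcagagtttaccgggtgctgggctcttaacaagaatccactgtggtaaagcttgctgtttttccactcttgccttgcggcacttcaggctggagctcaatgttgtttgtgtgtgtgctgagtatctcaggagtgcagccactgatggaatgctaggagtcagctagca
Birc3 (chr9:7873121-7873420, minus strand): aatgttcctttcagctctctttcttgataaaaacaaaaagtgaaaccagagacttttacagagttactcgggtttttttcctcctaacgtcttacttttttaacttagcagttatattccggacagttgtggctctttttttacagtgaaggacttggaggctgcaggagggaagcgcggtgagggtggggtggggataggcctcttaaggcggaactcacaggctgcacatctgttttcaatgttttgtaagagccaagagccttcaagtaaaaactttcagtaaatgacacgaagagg
Bcl10 (chr3:145924012-145924311, plus strand): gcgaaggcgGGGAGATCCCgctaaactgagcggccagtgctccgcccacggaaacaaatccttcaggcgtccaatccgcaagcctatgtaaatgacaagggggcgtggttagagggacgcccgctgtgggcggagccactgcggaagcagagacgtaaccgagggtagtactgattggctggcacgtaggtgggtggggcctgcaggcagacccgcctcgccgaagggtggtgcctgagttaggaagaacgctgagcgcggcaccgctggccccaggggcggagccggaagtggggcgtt
The motif was searched by the NF-κB consensus on both strands. It was found in 4.51% of 32851 promoters of the same length, and in 2 of the 8 members with a promoter here. Malt1 was not among these 8. In Bcl10 it lies 241 to 232 bases before the start. The other match, GGGGATTTCC, lies 10 to 1 bases before the start of Traf3, on chromosome 12. These letters are not in the Traf1 and Birc3 windows.

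Malt1 rose with 17βE in CD44+ cells, and its 17βE arrays also lay above the controls in c-kit+ cells, where the difference did not pass. Its log2 values were 10.01, 10.30 and 10.10 in CD44+ cells from 17βE cultures, against 8.42, 8.99 and 8.26 in CD44+ cells from control cultures. In c-kit+ cells they were 10.15, 10.31 and 10.07 with 17βE, against 9.10, 8.89 and 9.71 in control cultures. The groups did not overlap in either fraction, the 17βE arrays were close together, and the third c-kit+ control array was the highest of the 6 control arrays.

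**Figure D1:**
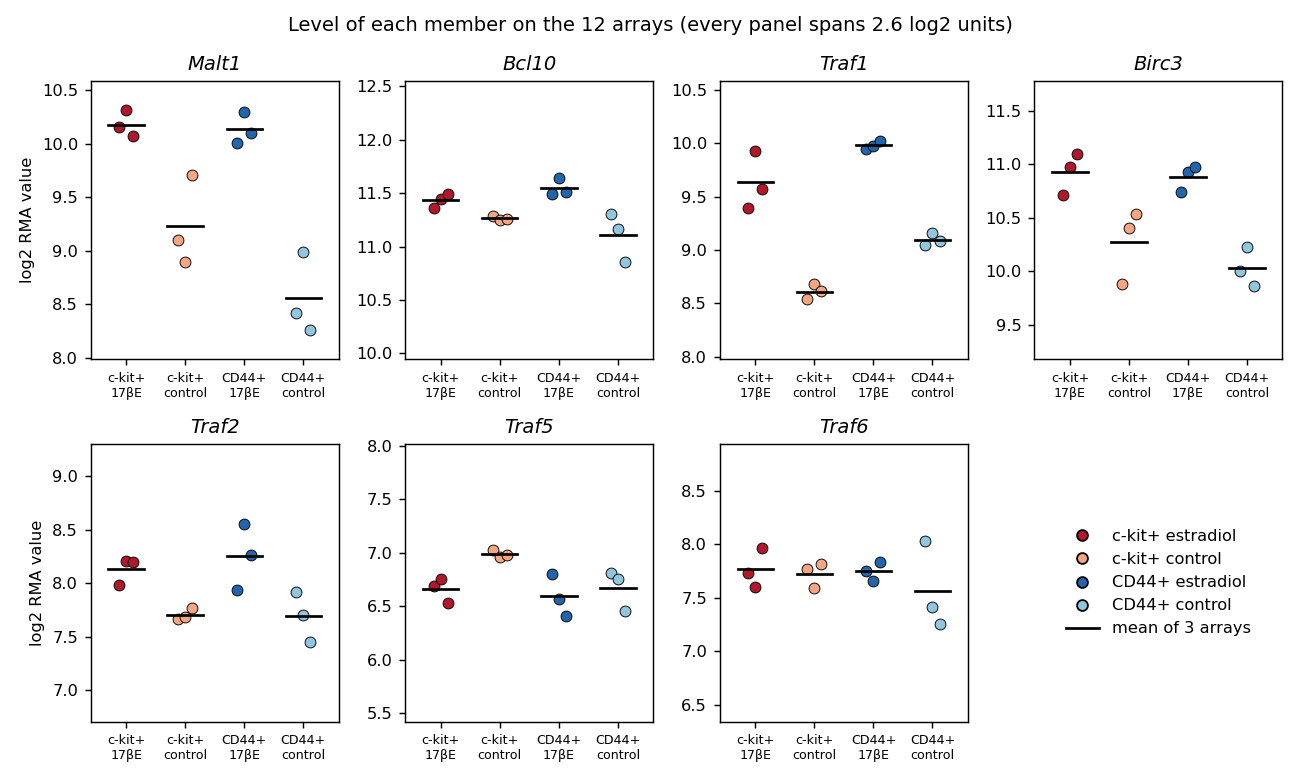
Log2 RMA value (y axis) of the 7 measured members on each of the 12 arrays, by group, with a bar at the mean of 3 arrays; every panel has its own range of equal span. All 17βE arrays lie above the control arrays of their fraction for Malt1, Bcl10, Traf1, Birc3 and Traf2, and Traf5 and Traf6 do not show this.

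Malt1 rose by 1.58 on the log2 scale in CD44+ cells (SE 0.21, 2.99-fold, adjusted p = 0.00433 in limma over all genes). In c-kit+ cells the difference was 0.94 (SE 0.21, 1.92-fold), which did not pass (adjusted p = 0.161). Without c-kit+ control replicate 3 it was 1.18 and passed (adjusted p = 0.0159). The effects in c-kit+ and CD44+ cells differed by -0.64 (c-kit+ minus CD44+, 95% interval -1.28 to 0.00, unadjusted p = 0.051), which did not pass over all genes (adjusted p = 1.00), so a smaller effect in c-kit+ cells was not shown. Earlier results of these data, in which Malt1 was already seen to rise in CD44+ cells, were known when the members were chosen, so its test there is not independent evidence.

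The other probe sets of Malt1 had the same sign. Probe set 1456126_at had 9.39, 9.70 and 9.46 in CD44+ cells with 17βE against 8.43, 8.51 and 7.74 in control cells, and 9.18, 9.63 and 9.31 against 8.11, 8.15 and 9.02 in c-kit+ cells. Its differences were 1.29 in CD44+ cells (adjusted p = 0.0776 over all probe sets) and 0.94 in c-kit+ cells (adjusted p = 0.351). The third, 1445068_at, varied more between arrays. It had 9.47, 9.86 and 9.50 in CD44+ cells with 17βE against 7.97, 8.18 and 8.24 without, and 8.98, 9.89 and 8.29 in c-kit+ cells with 17βE against 8.32, 6.67 and 8.11 without. Only in c-kit+ cells did the groups of this probe set overlap. Neither of these probe sets passed when every probe set was tested.

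Bcl10, the filament-forming partner of MALT1, had higher values with 17βE in both fractions, and neither difference passed. In CD44+ cells it had 11.49, 11.64 and 11.51 with 17βE, against 11.30, 11.16 and 10.86 in control cultures. In c-kit+ cells it had 11.36, 11.45 and 11.49 with 17βE, against 11.29, 11.25 and 11.26 in control cultures. The groups did not overlap in either fraction, but the gaps were small. The differences were 0.44 in CD44+ cells (SE 0.11, adjusted p = 0.240) and 0.17 in c-kit+ cells (SE 0.11, adjusted p = 0.999), and neither passed. Of its 4 probe sets 3 behaved this way, 2 of them of the x_at kind that may also bind related transcripts. The fourth, 1418972_at, was dimmer and its groups overlapped in both fractions. In CD44+ cells Bcl10 passed under 1 of 22 alternatives, array weights (adjusted p = 0.00651).

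Traf1, an adaptor without the RING ligase domain of its relatives that binds TRAF2 and BIRC3, rose in both fractions. In c-kit+ cells its log2 values were 9.39, 9.93 and 9.57 with 17βE, against 8.54, 8.68 and 8.61 in control cultures. In CD44+ cells they were 9.94, 9.98 and 10.02 with 17βE, against 9.04, 9.16 and 9.09 in control cultures. Every 17βE array lay above every control array, of the other fraction too. The rise was 1.02 in c-kit+ cells (SE 0.12, 2.03-fold, adjusted p = 0.0049) and 0.88 in CD44+ cells (SE 0.12, 1.84-fold, adjusted p = 0.00579). The effects differed by 0.14 (95% interval -0.24 to 0.52, adjusted p = 1.00). The second probe set, 1423602_at, also rose in both, by 1.15 in c-kit+ cells (adjusted p = 0.0471) and 1.15 in CD44+ cells (adjusted p = 0.03485), adjusted over all probe sets. The 6 c-kit+ arrays alone gave Traf1 an adjusted p of 0.121, and in CD44+ cells it was 0.0529 without CD44+ 17βE replicate 3 and 0.05002 after quantile normalization.

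Birc3 was higher with 17βE in both fractions without passing in either. In c-kit+ cells it had 10.71, 10.97 and 11.10 with 17βE, against 9.87, 10.41 and 10.54 in control cultures. In CD44+ cells it had 10.74, 10.92 and 10.97 with 17βE, against 10.00, 10.22 and 9.86 in control cultures. The groups of 3 did not overlap. The differences were 0.65 in c-kit+ cells (SE 0.17, 1.57-fold, adjusted p = 0.308) and 0.85 in CD44+ cells (SE 0.17, 1.81-fold, adjusted p = 0.0633). A fit blocked on replicate number, shared by both fractions and both treatments, let the CD44+ value pass (adjusted p = 0.0194). CD44+ arrays met the pairing criterion. It was missed within c-kit+ cells (0.0916 for replicate 2) and among controls across fractions (-0.208 for replicate 3). The criterion therefore does not justify the blocked fit as a whole. The CD44+ value also passed without c-kit+ control replicate 1 (adjusted p = 0.0168) or replicate 3 (adjusted p = 0.0231), which enter only the shared spread. It passed too with the CD44+ arrays alone (adjusted p = 0.0276) and with the mean of the gene's probe sets (0.0214). With trend and robust moderation in limma the adjusted p was 0.0467. Over 22 alternatives it passed under 8, with adjusted p from 0.00279 to 0.346. The other probe set, 1425223_at, gave 0.66 in c-kit+ and 0.79 in CD44+ cells, with no overlap. Birc2, the neighbouring gene for the related ligase c-IAP1, had 0.23 in c-kit+ cells (adjusted p = 0.999) and 0.43 in CD44+ cells (adjusted p = 0.344).

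Traf2, the adaptor that brings BIRC2 and BIRC3 to TNF receptors, has 1 probe set here. In c-kit+ cells it had 7.99, 8.21 and 8.20 with 17βE, against 7.67, 7.68 and 7.77 in control cultures. In CD44+ cells it had 7.93, 8.55 and 8.26 with 17βE, against 7.92, 7.70 and 7.45 in control cultures. The CD44+ groups were separated by very little. The differences, 0.43 in c-kit+ cells (SE 0.16, adjusted p = 0.835) and 0.56 in CD44+ cells (SE 0.16, adjusted p = 0.326), did not pass.

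Traf6, the ubiquitin ligase downstream of both the MALT1 filament and Toll-like receptors, had overlapping groups in both fractions. Its values were 7.73, 7.60 and 7.97 with 17βE against 7.77, 7.59 and 7.82 in control c-kit+ cells, and 7.75, 7.66 and 7.84 against 8.03, 7.41 and 7.25 in CD44+ cells. The differences were 0.04 in c-kit+ cells (95% interval -0.33 to 0.42) and 0.18 in CD44+ cells (-0.19 to 0.56), with adjusted p = 0.999 and 0.949. All 5 of its probe sets had overlapping groups. These intervals leave out a change as large as that of Traf1 in its own fraction.

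Traf5, an adaptor of CD40 and other TNF family receptors, was the member with a negative difference. In c-kit+ cells it had 6.69, 6.76 and 6.54 with 17βE, against 7.03, 6.96 and 6.98 in control cultures. In CD44+ cells it had 6.80, 6.57 and 6.41 with 17βE, against 6.81, 6.75 and 6.45 in control cultures. All 3 c-kit+ 17βE arrays were below the controls, and the CD44+ groups overlapped. The values were -0.33 in c-kit+ cells (SE 0.13, adjusted p = 0.924) and -0.08 in CD44+ cells (SE 0.13, adjusted p = 0.956). Its other probe set, 1447682_x_at, read 3.27 to 3.63, close to the median of the Y-linked probe sets.

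**Figure D2:**
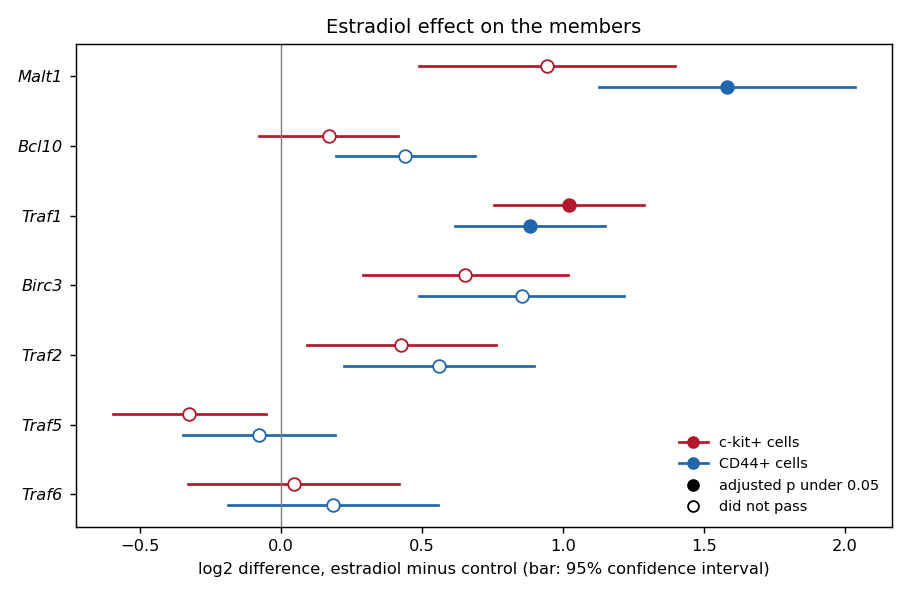
Difference between 17βE and control cultures (x axis, log2) for the 7 members (rows) in c-kit+ and CD44+ cells, with 95% confidence intervals; filled points passed at an adjusted p under 0.05. Traf1 is filled in both fractions and Malt1 in CD44+ cells, and the intervals of both fractions overlap for every member.

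Counted together, 1 of the 7 members rose in c-kit+ cells, where 0.176% of all genes rose, and 2 rose in CD44+ cells, where 0.28% did. None fell, against 0.0055% and 0.011% of all genes. In c-kit+ cells 5 members had 17βE arrays wholly above the control arrays (5.34% of all genes) and 1, Traf5, wholly below (2.47%). In CD44+ cells 5 lay wholly above (6.75%) and 0 wholly below (5.92%). The median difference of the members was 0.43 in c-kit+ and 0.56 in CD44+ cells, beside 0.02 and 0.01 over all genes. Members were chosen with earlier results of these data known, so counts and medians beside all genes, here and below, are not independent evidence. For no member did the difference of the effects pass (limma, 0 of 18193 genes, 0.0% called). An unadjusted p under 0.05 was reached by 296 genes (1.63%) and 0 members.

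Over the 19 probe sets, 17 had a positive difference in c-kit+ cells and 16 in CD44+ cells. Groups did not overlap, with 17βE higher, for 10 probe sets in c-kit+ cells (5.22% of all probe sets) and 11 in CD44+ cells (6.89%). When every probe set was tested, 2 passed in c-kit+ cells (0.117% of all) and 3 in CD44+ cells (0.212%): both of Traf1 in each fraction, and the brightest of Malt1 in CD44+ cells.

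**Figure D3:**
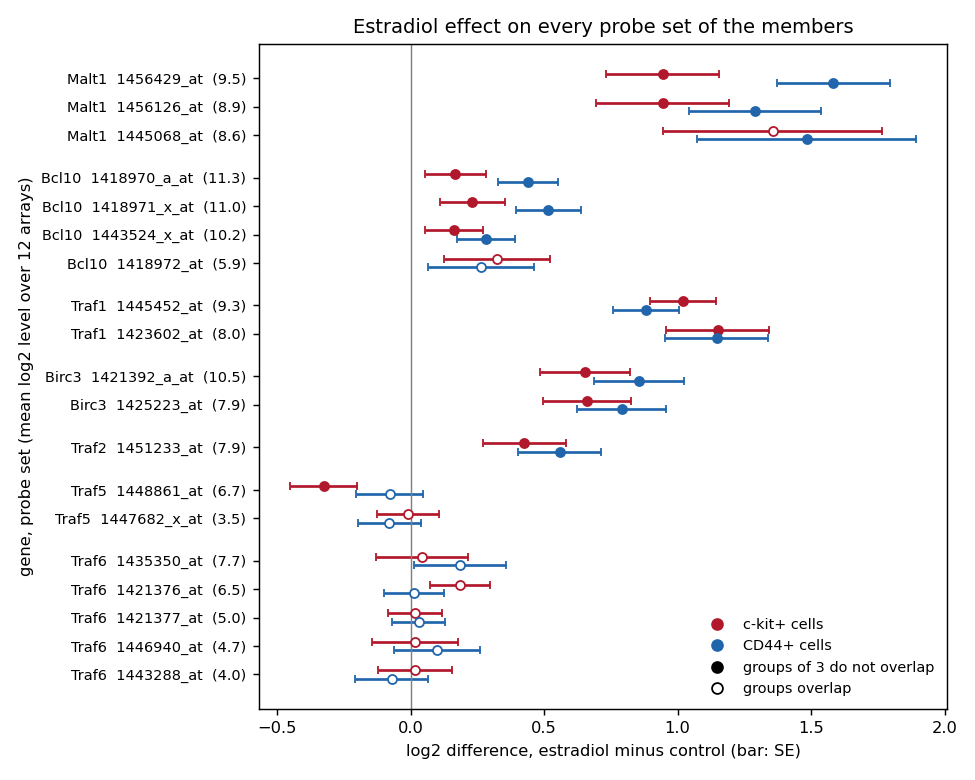
Difference between 17βE and control cultures (x axis, log2, bar SE) for each of the 19 probe sets (rows, with the mean log2 level in brackets) in c-kit+ and CD44+ cells; filled points mark groups of 3 arrays that do not overlap. The probe sets of Malt1, Traf1 and Birc3 lie right of 0 in both fractions, from 0.65 to 1.58, and those of Traf6 lie around 0.

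Averaging the effect over both fractions, a comparison added after the data were seen, set 6 arrays with 17βE against 6 without. The fit took all arrays as independent. Equal-numbered 17βE arrays of the fractions met the pairing criterion (0.447, 0.192 and 0.312), and control arrays missed it (0.175, 0.122 and -0.208). The labels do not say whether both fractions came from the same cultures. If they did, the adjusted p-values of every averaged result, here and below, may be too small. Malt1 rose by 1.26 (SE 0.15, 2.40-fold, adjusted p = 0.000736), Traf1 by 0.95 (SE 0.09, 1.93-fold, adjusted p = 0.000118) and Birc3 by 0.75 (SE 0.12, 1.69-fold, adjusted p = 0.00657). These 3 of 7 members stand beside 0.863% of all genes that rose and 0.0879% that fell. Traf2 had 0.49 (adjusted p = 0.0597), Bcl10 0.30 (adjusted p = 0.149), Traf6 0.11 (adjusted p = 0.978) and Traf5 -0.20 (adjusted p = 0.654), and none of them passed. Traf2 passed without c-kit+ control replicate 3 (adjusted p = 0.0492), CD44+ 17βE replicate 1 (0.0199) or CD44+ control replicate 1 (0.0376).

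Between the fractions no member passed. In control cultures 2.3% of all genes did, 0.539% higher and 1.76% lower in c-kit+ cells, and in 17βE cultures 2.65% did, 0.324% higher and 2.33% lower. Of the 7 members, 1 lay wholly higher in c-kit+ control cells (Traf5, 7.41% of all genes) and 1 wholly lower (8.33%), and in 17βE cells 0 lay wholly higher (10.0%) and 1 wholly lower (8.15%). Malt1 had means of 10.18 in c-kit+ and 10.14 in CD44+ cells from 17βE cultures (difference 0.04, 95% interval -0.41 to 0.50), and of 9.23 and 8.55 in control cultures (difference 0.68, SE 0.21, adjusted p = 0.137). Without CD44+ control replicate 2 the control difference was 0.90 and passed (adjusted p = 0.0391). The order of its group means was therefore 8.55, 9.23, 10.14 and 10.18, and neither the lowest pair nor the highest pair differed beyond the test. Traf1 was the member whose c-kit+ arrays lay wholly below the CD44+ arrays in both kinds of culture. Its means were 8.61 in c-kit+ and 9.10 in CD44+ control cells (difference -0.49, adjusted p = 0.0621), and 9.63 and 9.98 in 17βE cells (difference -0.35, adjusted p = 0.262). The control difference passed without c-kit+ 17βE replicate 1 (adjusted p = 0.0426) or 2 (0.0213), and the 17βE difference without c-kit+ 17βE replicate 2 (-0.50, adjusted p = 0.0413). RNA quality also differed between the fractions. The 3′ minus 5′ signal of Actb was 2.34 to 4.68 on c-kit+ arrays and 1.52 to 2.14 on CD44+ arrays. Its part in these comparisons was not tested.

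Of 52 measured pathway genes around the members, in 6 lists also chosen with earlier results known, 1 rose in each fraction and none fell. Over all genes 0.176% rose and 0.0055% fell in c-kit+ cells, and 0.28% rose and 0.011% fell in CD44+ cells. The gene was Cd40, the TNF family receptor that signals through TRAFs. Its log2 values were 10.16, 10.59 and 10.00 in c-kit+ cells with 17βE against 9.03, 9.06 and 8.78 without, and 9.83, 10.12 and 10.18 in CD44+ cells with 17βE against 8.54, 8.70 and 8.32 without. It rose by 1.29 in c-kit+ (adjusted p = 0.0049) and 1.52 in CD44+ cells (adjusted p = 0.00129).

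The remaining receptors and adaptors that recruit TRAFs, 13 of the 14 measured, did not pass in either fraction. The list median was 0.14 in both fractions. Tank, whose product binds TRAFs, had 0.47 in c-kit+ (adjusted p = 0.386) and 0.53 in CD44+ cells (adjusted p = 0.179). Averaged over both fractions Tank rose (0.50, adjusted p = 0.0191). Tifa, an adaptor that oligomerizes TRAF6, had 0.23 and 0.41 (adjusted p = 0.999 and 0.393), and Myd88, the Toll-like receptor adaptor, 0.13 and 0.33 (adjusted p = 0.999 and 0.520).

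Among the 7 genes whose protein products MALT1 is known to cleave none passed, and medians were 0.11 in c-kit+ and 0.27 in CD44+ cells. Tnfaip3, the deubiquitinase that restrains NF-κB, had 13.55, 13.45 and 13.52 in c-kit+ cells with 17βE against 13.17, 12.73 and 13.02 without, a difference of 0.53 (adjusted p = 0.359). In CD44+ cells it had 13.53, 13.55 and 13.45 against 13.09, 12.80 and 12.54, a difference of 0.70 (adjusted p = 0.0765). Relb, an NF-κB subunit, had 0.72 in c-kit+ (adjusted p = 0.696) and 0.90 in CD44+ cells (adjusted p = 0.277). Zc3h12a, the RNase Regnase-1, had 0.75 and 0.27 (adjusted p = 0.518 and 0.949). Averaged over both fractions Tnfaip3 (0.62, adjusted p = 0.00821) and Relb (0.81, adjusted p = 0.0428) rose.

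None of the 5 measured receptors that signal through CARD9 passed in either fraction. Clec4e, the receptor Mincle, had 0.82 in c-kit+ (adjusted p = 0.181) and 0.77 in CD44+ cells (adjusted p = 0.168), and rose when averaged over both (0.80, adjusted p = 0.00922). Clec4n, Dectin-2, had 0.01 and 0.33, and Clec4d 0.19 and 0.13. The list median was 0.02 in c-kit+ and 0.15 in CD44+ cells.

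None of the 10 upstream CARD scaffolds and kinases passed, and their medians were 0.08 in c-kit+ and 0.05 in CD44+ cells. Syk, the kinase next to these receptors, had 0.08 and 0.29 (adjusted p = 0.999 and 0.573), Vav1 0.13 and 0.37, and Prkcd -0.05 and 0.22. None of the 10 downstream kinases passed, with medians of 0.05 and 0.18. Map3k8, the kinase TPL2, had 0.40 in c-kit+ and 0.61 in CD44+ cells (adjusted p = 0.999 and 0.663), Ikbke 0.36 and 0.59, and Ikbkb 0.04 and 0.25. None of the other 6 TRAF and IAP family genes passed, with medians of 0.10 and -0.07. Among these Birc6 had 0.27 in c-kit+ and -0.03 in CD44+ cells, and Traf4 0.31 and -0.15.

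**Figure D4:**
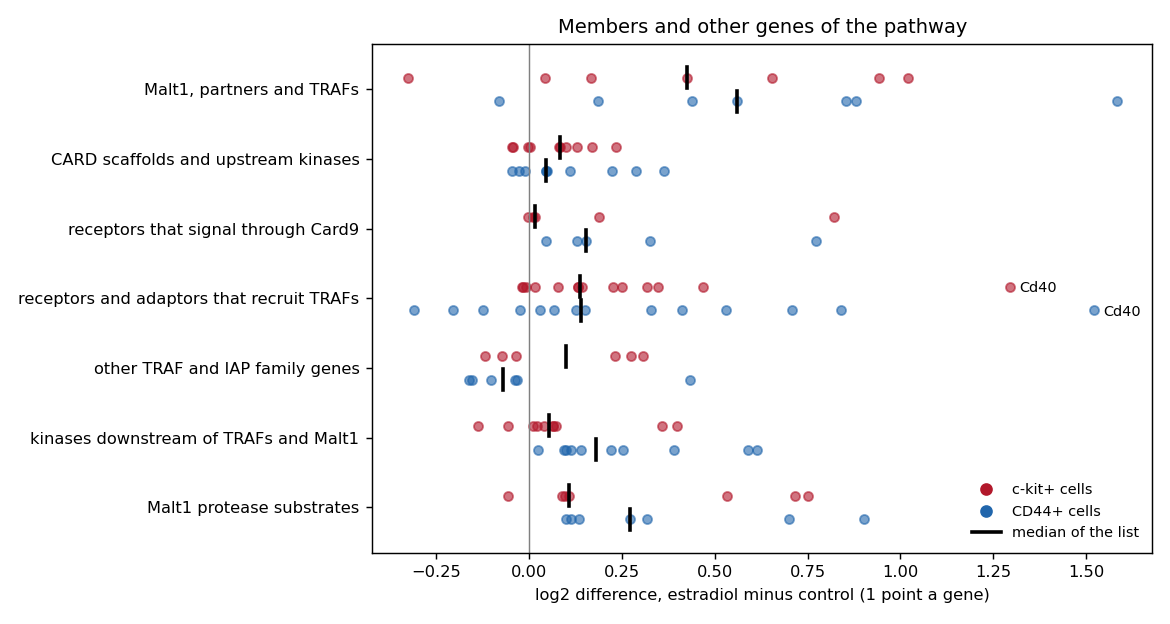
Difference between 17βE and control cultures (x axis, log2, 1 point a gene) for the members and 6 lists of pathway genes (rows) in c-kit+ and CD44+ cells, with a bar at each list's median. The members' medians are 0.43 and 0.56, those of the other lists lie between -0.07 and 0.27, and Cd40 stands at 1.29 and 1.52. Members and lists were chosen with earlier results of these data known.

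Among 9096 other genes at or above the median level, those whose pattern over the 12 arrays was most like that of Malt1 by Pearson correlation were Ets2 (r = 0.96), 2610024D14Rik (0.96), Casp4 (0.96), Tank (0.94) and Prdm1 (0.94). The lowest values belonged to Fbxo5 (-0.92) and Zscan22 (-0.92). Within the members Birc3 had 0.91, Bcl10 0.83, Traf2 0.79, Traf1 0.69, Traf6 0.32 and Traf5 -0.21. These describe arrays that share their treatment and fraction, so no p is given.

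Other measures moved with 17βE in part. The mean of the 8 macrophage markers was 11.96 to 12.16 on CD44+ arrays with 17βE and 11.79 to 11.96 on CD44+ control arrays, and 12.03 to 12.40 and 12.10 to 12.23 on c-kit+ arrays with and without 17βE. None of these markers passed. The mean of the 9 stromal markers was 6.67 to 7.47 with 17βE and 6.56 to 7.05 without in c-kit+ cells, and 8.37 to 9.32 with 17βE and 7.91 to 8.87 without in CD44+ cells. Another RNA quality measure, the 3′ minus 5′ signal of Gapdh, was 4.23 to 6.17 and 4.62 to 5.35 in c-kit+ cells with and without 17βE. In CD44+ cells it was 3.32 to 4.31 with 17βE and 2.83 to 4.14 without. Their part in the results was not tested. CD44+ control replicate 3 had the lowest value of its group for every member but Traf1. Without it Malt1 had 1.44 (adjusted p = 0.0376) and Traf1 0.88 (adjusted p = 0.0404) in CD44+ cells, where 30 genes passed in place of 53.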

How the data were processed

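Total RNA was labelled with biotin after in vitro transcription and hybridized to Affymetrix mouse arrays, per the labels' protocols. The authors deposited log2 values made with RMA, per the submitters' processing notes, which name no version. The log2 scale was read from the values. All values ran from 2.47 to 14.81, and array medians from 4.75 to 4.84. Precision is limited by how many arrays there are.

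The platform annotation gave 34945 of 45101 probe sets exactly 1 gene name. Each of 18193 genes was represented by its brightest probe set, with no filter. Limma 3.58.1 (R 4.3.3) fitted 1 mean per group over all 12 arrays, with p-values adjusted by Benjamini-Hochberg across every gene and called under 0.05; "rose" and "fell" mean this. On simulated data with 50 changed genes a size, 78% of log2 changes of 1 were recovered for c-kit+ cells and 92% for CD44+ cells. The simulation gave each gene the same spread in all groups, so these figures do not compare the fractions. It drew genes and arrays independently. Its fits called 158 genes for c-kit+ and 167 for CD44+ cells, against 33 and 53 on the real arrays. Recovery on the real arrays may be lower for both reasons. Replicate numbers were taken to pair arrays where the deviations from group means of every equal-numbered pair correlated above 0.1: CD44+ arrays met this with 0.303, 0.368 and 0.322, and 17βE arrays across fractions with 0.447, 0.192 and 0.312. It was missed within c-kit+ cells (0.345, 0.0916 and 0.253) and among controls across fractions (0.175, 0.122 and -0.208).

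Named genes were all members with every probe set, pathway genes that passed plus up to 3 of smallest p per list, and the 5 genes most and 2 least like Malt1; levels of marker genes check the labels. The members and lists were chosen with earlier results of these data known. Tables and plots used pandas 2.3.3 and matplotlib 3.10.9 under Python 3.11.15. Alternatives are given in the closing section.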

Additional observations from a re-analysis of the deposited data

How the results depend on the processing

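In CD44+ cells Malt1 passed under all 22 alternatives (1.23 to 1.80, adjusted p from 0.000147 to 0.0376) and Traf1 under 20 (0.75 to 1.01, adjusted p up to 0.0529). In c-kit+ cells Traf1 passed under 21 of 22 (0.87 to 1.14, adjusted p from 0.00232 to 0.121) and Malt1 under 2 (0.77 to 1.18, adjusted p from 0.0159 to 0.725). In CD44+ cells Birc3 passed under 8 of 22 (0.69 to 0.95, adjusted p from 0.00279 to 0.346). In the average over both fractions Malt1, Traf1 and Birc3 passed under all 21 alternatives. The limit given above, that the fractions may share cultures, holds there too. Pathway genes were not recomputed under the alternatives.

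The count of members called in c-kit+ cells, 1, was 2 with array weights and 0 with the 6 arrays alone, and 1 to 2 when 1 array was left out. The count of 2 in CD44+ cells was 1 after quantile normalization and 5 with array weights, and 1 to 3 without 1 array. It was 3, Birc3 being the addition, with the mean of each gene's probe sets and with trend and robust moderation. The replicate block, the CD44+ arrays alone and a threshold of 0.1 gave the same 3. Between the fractions it was 0, and 1 in control cultures after quantile normalization, with array weights, with the replicate block and at a threshold of 0.1 (Traf1 each time); without 1 array it was 0 to 1 in control and 0 to 1 in 17βE cultures. In the average it was 3, 5 with array weights, and 3 to 4 without 1 array. Traf2 passed there under 7 of 21 alternatives (adjusted p from 0.00952 to 0.181): with the mean of each gene's probe sets (0.0443), with brighter genes alone (0.0492), with array weights, at a threshold of 0.1 and without c-kit+ control replicate 3, CD44+ 17βE replicate 1 or CD44+ control replicate 1. The replicate block changed no other call of a member: it gave Birc3 an adjusted p of 0.0194 in CD44+ cells and Traf1 0.0308 between control fractions. The block was shared by all groups, and the pairing criterion was missed within c-kit+ cells and among controls across fractions. The causes were not tested.

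Over all genes, array weights gave 55 in place of 33 calls in c-kit+ cells, 1405 in place of 53 in CD44+ cells, 1058 in place of 418 between control fractions, 779 in place of 483 between 17βE fractions and 523 in place of 173 in the average. The block gave 62, 101, 693 and 272 for c-kit+, CD44+, control fractions and average. The arrays of the comparison alone gave 2 in c-kit+ cells and 196 between control fractions, and a threshold of 0.1 gave 54, 88 and 671 for c-kit+, CD44+ and control fractions. Brighter genes gave 250 between 17βE fractions and every probe set 275 in the average. Leaving out 1 array gave 10 to 45 in c-kit+ cells, 22 to 97 in CD44+ cells, 221 to 456 and 269 to 594 between the fractions, and 104 to 275 in the average.

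Values that did not pass changed sign in places. For the difference of effects Traf6 had 0.0048 with gene means and Birc3 0.0661 with array weights. Between control fractions Bcl10 had -0.016 with gene means and -0.0196 after quantile normalization, Traf2 -0.0452 after quantile normalization and -0.0196 with array weights, and Birc3 -0.0395 with array weights. Between 17βE fractions Malt1 had -0.22 with gene means and Traf6 -0.0269 with array weights. Without 1 array the range was -0.0564 to 0.126 for Traf6 in c-kit+ cells and -0.189 to 0.0115 for Traf5 in CD44+ cells. For the difference of effects it was -0.0105 to 0.257 for Traf1, -0.292 to 0.0192 for Traf2 and -0.373 to 0.0142 for Traf6. Between control fractions it was -0.10 to 0.13 for Traf2. Between 17βE fractions it was -0.0253 to 0.124 for Malt1, -0.278 to 0.0334 for Traf2, -0.0218 to 0.171 for Traf5, -0.0816 to 0.101 for Traf6 and -0.0394 to 0.155 for Birc3.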
